A study of Saccharomyces cerevisiae with 7 samples.

Results

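The genes that make and break down glycogen were followed on expression arrays of budding yeast (Saccharomyces cerevisiae) that lacked a subunit of the chromatin remodelling complex SWR-C. The set was fixed by name and holds 10 genes, GLG1, GLG2, GSY1, GSY2, GLC3, GPH1, GDB1, GAC1, PIG1 and PIG2, of 5371 genes that had a value. All 10 had values in arp6Δ cells, and all but GSY2 had values in swr1Δ cells.

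Glycogen is the branched glucose polymer that yeast stores when glucose runs low or growth slows. Glycogenin proteins prime a new chain, glycogen synthase extends it from UDP-glucose and a branching enzyme adds the side chains, while glycogen phosphorylase and a debranching enzyme take the polymer apart. Synthase is switched off by phosphorylation and switched on by the type 1 phosphatase Glc7, which regulatory subunits such as Gac1 bring to the polymer.

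Swr1 is the catalytic subunit of SWR-C, which exchanges histone H2A for its variant Htz1 in nucleosomes, and Arp6 is an actin-related protein of that complex. The mutants were an arp6 deletion mutant (arp6Δ, 4 arrays) and a swr1 deletion mutant (swr1Δ, 3 arrays), and the wild type was the second channel of every array. Both deletion strains and the wild type were of the W303 background and were grown without any treatment in rich glucose medium (YPD) at 25 °C to an optical density of 1, which the labels call exponential growth. Each value is therefore a log2 ratio of deletion strain over wild type, so that 0 is no difference, −1 is 50% of wild type, and only ratios, not levels, can be compared. A bulk ratio cannot tell less mRNA per cell apart from fewer cells that hold it.

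An array gave values for 5734 to 5893 features. ARP6 read −1.28, −1.26, −1.19 and −0.63 in the 4 arp6Δ arrays, and SWR1 read −0.42, −1.02 and −1.01 in the 3 swr1Δ arrays. The direction of the ratios was taken from these signs, which are therefore no separate check of it. The means of ARP6 and SWR1 there were −1.09 and −0.82, so neither deleted gene read as absent, and the reason was not tested. The percentages of wild type given below are measured ratios of the same kind and need not be true amounts of mRNA. The arp6Δ arrays were wider than the swr1Δ arrays: the median SD of a feature between replicates was 0.52 in arp6Δ and 0.20 in swr1Δ. The 4 arp6Δ arrays also formed pairs. Over 5584 features, Pearson's r was 0.67 between replicates 1 and 2 and 0.85 between replicates 3 and 4, against 0.26 to 0.37 across the pairs. In stretches of the systematic gene order, moreover, the values of replicates 1 and 2 appeared to sit on the row of the preceding gene relative to replicates 3 and 4. A hidden Markov model placed 833 of 5371 named genes (15.5%) in such stretches, among them GSY1, GLC3 and PIG2, whose values are therefore given both as deposited and moved back. The other 7 members stayed on their own row with a probability of 0.78 or more.

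In arp6Δ cells the mRNAs of the glycogen genes were low relative to wild type. Of the 40 values of the 10 genes in arp6Δ cells, 39 were below 0 and 29 were below −1, on arrays where 9.35 to 20.4% of all features were below −1. None of the 27 values in swr1Δ cells was beyond 1 in either direction, but on those narrower arrays only 1.41 to 5.47% of all features were. On all 4 arp6Δ arrays 9 of the 10 genes were below 0, as were 19.9% of features measured on all 7 arrays. Averaged over arrays, 8 of the 10 genes were below −1 in arp6Δ cells, with means that ran between −2.48 for GPH1 and −0.69 for PIG1. Among features measured on all 7 arrays, 8.92% had an arp6Δ mean below −1, against 7 of the 9 members measured in both mutants. Tested in limma on the arp6Δ arrays with Benjamini-Hochberg adjustment over 5879 features at 0.05, 4 of 9 members fell and none rose. Over all features, 3.27% fell and 2.09% rose. The members that fell were GLG1, GPH1, GDB1 and GAC1. Without replicate 1 only GDB1 and GAC1 passed (adjusted p = 0.038 each), and all 4 genes lost the call when replicate 2, 3 or 4 was left out, and also when the pairs of arp6Δ arrays entered as a random block. Few features of any kind passed in those fits. There were 70 of 5872 without replicate 1 and 0 of 5872 without replicate 2. Without replicates 3 and 4 there were 5 and 3 of 5718, and with the random block 21 of 5879.

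**Figure D1:**
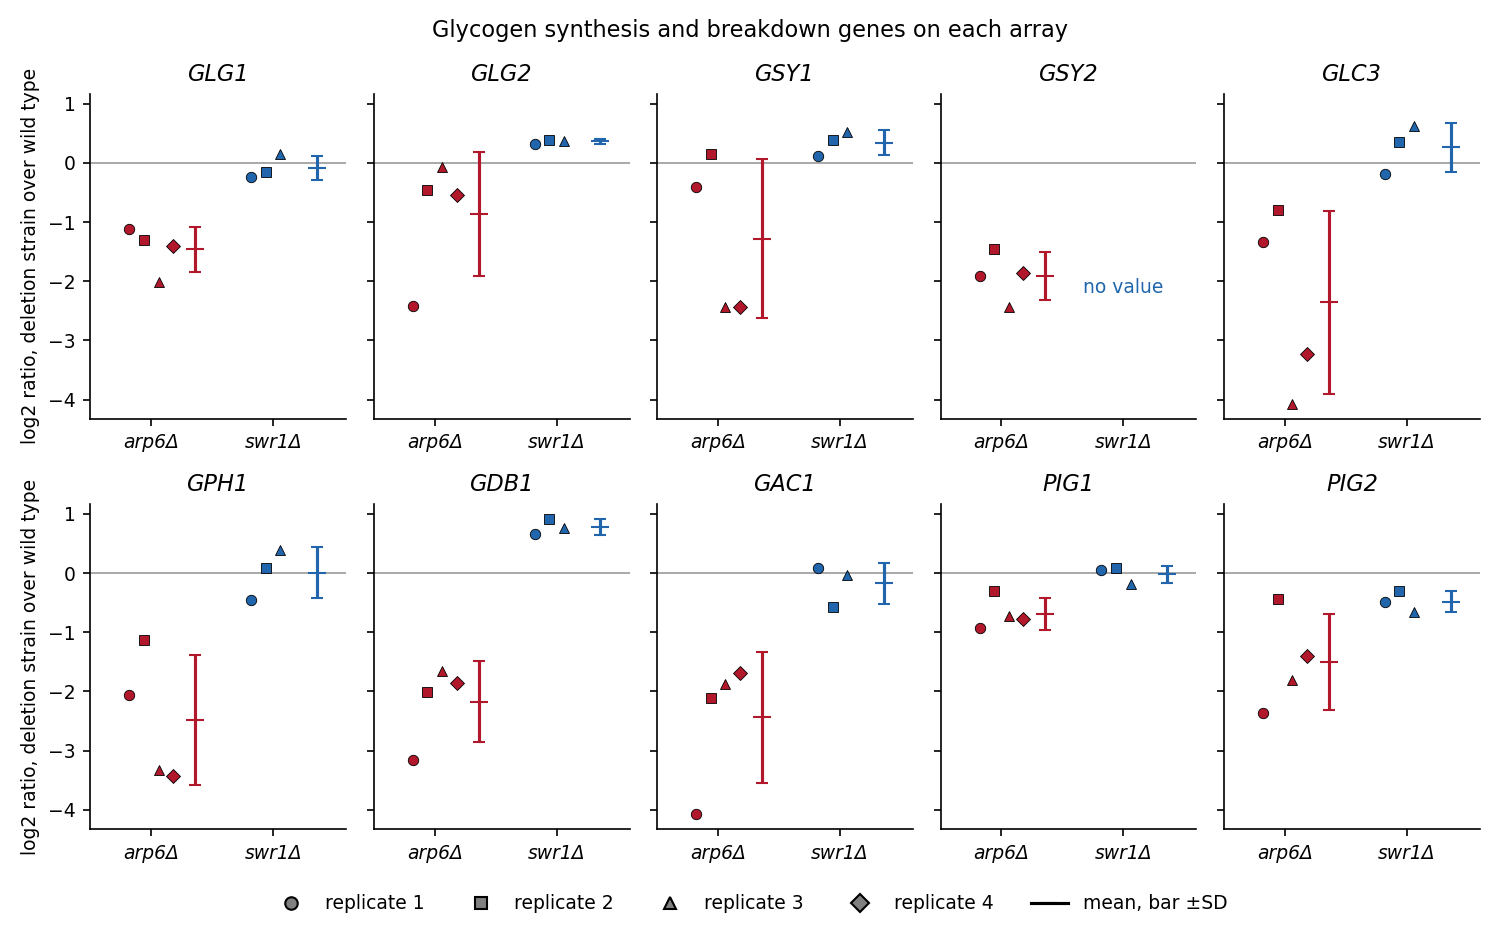
Log2 ratio of deletion strain over wild type (vertical axis) for each of the 10 genes on each arp6Δ array (red, left) and each swr1Δ array (blue, right); marker shapes are replicates, and the horizontal tick with its bar is the mean ± SD. All arp6Δ values but that of GSY1 on replicate 2 lie below 0, while the swr1Δ values lie between −0.65 and 0.92, and GSY2 has none in swr1Δ.

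The priming step was covered by GLG1 and GLG2, which encode the glycogenin proteins that start a chain by attaching glucose to themselves. GLG1 (YKR058W) read −1.12, −1.31, −2.01 and −1.40 in arp6Δ cells, and −0.24, −0.16 and 0.14 in swr1Δ cells. All 4 arp6Δ values lay below all 3 swr1Δ values, and GLG1 was among the members whose arp6Δ replicates lay closest together. It averaged −1.46 ± 0.38 (SD, n = 4) in arp6Δ cells, 36.3% of wild type (SE 0.23, limma adjusted p = 0.032).

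GLG2 (YJL137C) read −2.41, −0.46, −0.06 and −0.54 in arp6Δ cells, and 0.32, 0.39 and 0.37 in swr1Δ cells. The groups did not overlap, but replicate 1 carried most of the arp6Δ mean of −0.87 ± 1.05 (SD, n = 4), which was not past the threshold (adjusted p = 0.21). Without replicate 1 the mean was −0.36.

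GSY1 and GSY2 encode the isoforms of glycogen synthase, the enzyme that lengthens the chain, of which Gsy2 is the major one. GSY2 (YLR258W) read −1.90, −1.45, −2.43 and −1.86 in arp6Δ cells and had no value on any swr1Δ array. All 4 values lay below −1. The mean was −1.91 ± 0.40 (SD, n = 4), or 26.6% of wild type. The requirement of values in both mutants left GSY2 out of the test. With every feature measured on at least 2 arp6Δ arrays included it had an adjusted p of 0.023 in limma, in a fit where 3.22% of 5901 features fell.

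GSY1 (YFR015C) read −0.41, 0.15, −2.43 and −2.43 in arp6Δ cells, and 0.12, 0.39 and 0.52 in swr1Δ cells. The pairs of arp6Δ arrays were far apart, replicates 1 and 2 near wild type and replicates 3 and 4 close to each other at a low level, and the value of replicate 2 overlapped the swr1Δ values. As deposited the mean was −1.28 ± 1.35 (SD, n = 4; adjusted p = 0.15). GSY1 and GSY2 are close paralogs, and no source used here says whether the probes tell their transcripts apart.

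GLC3 (YEL011W) encodes the branching enzyme, which moves short chains onto side positions. It read −1.34, −0.79, −4.08 and −3.23 in arp6Δ cells, and −0.19, 0.36 and 0.62 in swr1Δ cells. The groups did not overlap, and the lowest pair was again replicates 3 and 4. The mean as deposited was −2.36 ± 1.55 (SD, n = 4), which missed the threshold (adjusted p = 0.059).

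Both enzymes of breakdown were low as well. GPH1 (YPR160W) encodes glycogen phosphorylase, which releases glucose 1-phosphate from the ends of the chains. It read −2.06, −1.13, −3.32 and −3.42 in arp6Δ cells, and −0.46, 0.08 and 0.39 in swr1Δ cells. No values overlapped, and replicates 3 and 4 were the lower pair here too. The mean of −2.48 ± 1.09 (SD, n = 4) was 17.9% of wild type (SE 0.42, adjusted p = 0.037).

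GDB1 (YPR184W) encodes the debranching enzyme, which removes the stubs that phosphorylase leaves at branch points. It read −3.16, −2.02, −1.65 and −1.85 in arp6Δ cells, and 0.66, 0.92 and 0.76 in swr1Δ cells. The mutants stood on opposite sides of the wild type on every array. The arp6Δ mean of −2.17 ± 0.68 (SD, n = 4) was 22.2% of wild type (SE 0.30, adjusted p = 0.029), and the swr1Δ mean of 0.78 ± 0.13 (SD, n = 3) was 172% of wild type (SE 0.11, adjusted p = 0.021).

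GAC1, PIG1 and PIG2 encode proteins that bind Glc7 or glycogen synthase. Gac1 is the subunit that targets Glc7 to glycogen synthase, Pig1 resembles Gac1, and Pig2 is a putative subunit of the same phosphatase. GAC1 (YOR178C) read −4.07, −2.11, −1.87 and −1.69 in arp6Δ cells, and 0.08, −0.57 and −0.04 in swr1Δ cells. Replicate 1 was the lowest, and all 4 values stayed below those of swr1Δ cells. The mean was −2.44 ± 1.10 (SD, n = 4), or 18.5% of wild type (SE 0.42, adjusted p = 0.037).

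PIG1 (YLR273C) read −0.93, −0.31, −0.73 and −0.78 in arp6Δ cells, and 0.05, 0.08 and −0.18 in swr1Δ cells. It had the smallest arp6Δ departure of the 10 genes, with a mean of −0.69 ± 0.27 (SD, n = 4; adjusted p = 0.094), although the groups did not overlap. PIG2 (YIL045W) read −2.36, −0.43, −1.80 and −1.40 in arp6Δ cells, and −0.49, −0.31 and −0.65 in swr1Δ cells. Replicate 2 of arp6Δ fell within the swr1Δ values, so the groups overlapped. The arp6Δ mean was −1.50 ± 0.81 (SD, n = 4; adjusted p = 0.056).

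In swr1Δ cells the same genes were spread around the wild type. The test on the 3 swr1Δ arrays called 2 of 9 members, GDB1 higher as above and PIG2 lower, with 11.2% of all features higher and 10.9% lower in that test. PIG2 averaged −0.48 ± 0.17 (SD, n = 3), or 71.5% of wild type (SE 0.12, adjusted p = 0.036). It was the only member below 0 on all 3 arrays, as were 31.5% of features measured on all arrays, while GLG2, GSY1 and GDB1 were above 0 on all 3, as were 30.7% of features. GLG2 averaged 0.36 ± 0.04 (adjusted p = 0.053) and GSY1 0.34 ± 0.21 (adjusted p = 0.086) in swr1Δ cells. The remaining means were 0.26 ± 0.41 for GLC3, 0.00 ± 0.43 for GPH1, −0.02 ± 0.14 for PIG1, −0.09 ± 0.20 for GLG1 and −0.18 ± 0.35 for GAC1 (SD, n = 3 each), with adjusted p-values between 0.28 and 0.99. The calls depended on which arrays were used. Without replicate 2 neither GDB1 nor PIG2 passed (adjusted p = 0.066 and 0.17). That fit called 279 of 5802 features, against 1303 of 5879 in the main test. Without replicate 1 as many as 5 of 9 members passed, in a fit where 53.9% of all features were past the threshold. In a fit that pools the spread of all 7 arrays neither GDB1 nor PIG2 passed, and 0 of 5879 features did.

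The difference between the mutants was tested directly as arp6Δ minus swr1Δ over all 7 arrays, a contrast from which a dye effect or a wild-type sample common to all arrays drops out. All 9 members had a negative difference, and the values of the mutants did not overlap for 7 of them. Every arp6Δ value was below every swr1Δ value for 15.3% of features measured on all arrays. Past the threshold were 3 of 9 members, GDB1, GPH1 and GLG1, all lower in arp6Δ cells, beside 3.9% of all features lower and 3.13% higher. GDB1 had the largest difference, −2.95 (SE 0.37, adjusted p = 0.020). GPH1 differed by −2.49 (SE 0.57, adjusted p = 0.041) and GLG1 by −1.37 (SE 0.28, adjusted p = 0.035). GAC1 differed by −2.26 and lay at the threshold (SE 0.56, adjusted p = 0.051), and GLC3 differed by −2.62 (SE 0.76, adjusted p = 0.070). The other differences were −1.62 for GSY1, −1.23 for GLG2, −1.01 for PIG2 and −0.67 for PIG1, with adjusted p-values of 0.11 to 0.16. Leaving out any swr1Δ array, or arp6Δ replicate 4, left no member past the threshold. Over all features those fits called 3 without swr1Δ replicate 1, 2 or 3 and 5 without arp6Δ replicate 4, against 413 in the main contrast.

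The arp6Δ arrays disagreed on the members between the pairs and, for some genes, within a pair. Over the 9 genes measured on all arrays, r was 0.76 between replicates 1 and 2 and 0.95 between replicates 3 and 4, against −0.19 to 0.10 across the pairs, a description over 9 genes that share their arrays. GSY1, GLC3 and GPH1 were lower in replicates 3 and 4 than in replicates 1 and 2, by 2.30, 2.59 and 1.78 in their means, whereas GAC1, GLG2 and GDB1 were higher there by 1.31, 1.13 and 0.84. For GAC1 and GLG2 replicate 1 alone carried most of that gap, and PIG2 differed within the first pair, at −2.36 and −0.43. Fitted alone, replicates 3 and 4 had 8 of 9 members lower, all but GLG2, in a fit where 22.9% of features were lower. Replicates 1 and 2 alone had GDB1 and GAC1 lower, beside 4.69% of features.

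The displaced stretches bear on GSY1, GLC3 and PIG2. They were sought as rows where replicates 1 and 2 of the preceding gene resembled replicates 3 and 4, so that likeness is a description of the choice: within them r with replicates 3 and 4 was 0.26 for the preceding row and 0.18 for the same row, while elsewhere the same row gave 0.41 and the preceding row 0.10. Against swr1Δ replicate 1, which the search did not use, replicates 1 and 2 had an r of 0.085 on the preceding row and 0.061 on their own within the stretches, values that hardly differ. Replicates 3 and 4 had an r of 0.24 with swr1Δ replicate 1 on their own row and 0.05 on the preceding row, so the own row was kept for them. The row before GSY1 is that of CMK1, where replicates 1 and 2 read −2.05 and −1.81. With these values GSY1 would stand at −2.05, −1.81, −2.43 and −2.43, with a mean of −2.18. The row before PIG2 is that of AGE2, where replicates 1 and 2 read −3.74 and −2.62, which would put PIG2 at a mean of −2.39. The gene before GLC3 had no named value, so GLC3 would rest on replicates 3 and 4, with a mean of −3.65. Since the rows were picked by their likeness to replicates 3 and 4, the smaller spread of GSY1 on them was set in part by that choice.

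With the displaced values moved back throughout the table, 7 of 9 members were past the threshold in arp6Δ cells, beside 3.78% of all features lower, and 5 of 9 in the contrast with swr1Δ, again beside 3.78%. The members added were GSY1, GLC3 and PIG2 in arp6Δ cells and GSY1 and GLC3 in the contrast, that is, the ones whose values the search had replaced or dropped, so the higher counts are no separate support for a fall of these genes. GLG2 and PIG1 did not pass in either fit. The 2 readings of PIG2 differ in spread as well as in level: on its own row it read −2.36 and −0.43 in replicates 1 and 2, and on the preceding row both values were lower than those of replicates 3 and 4.

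**Figure D2:**
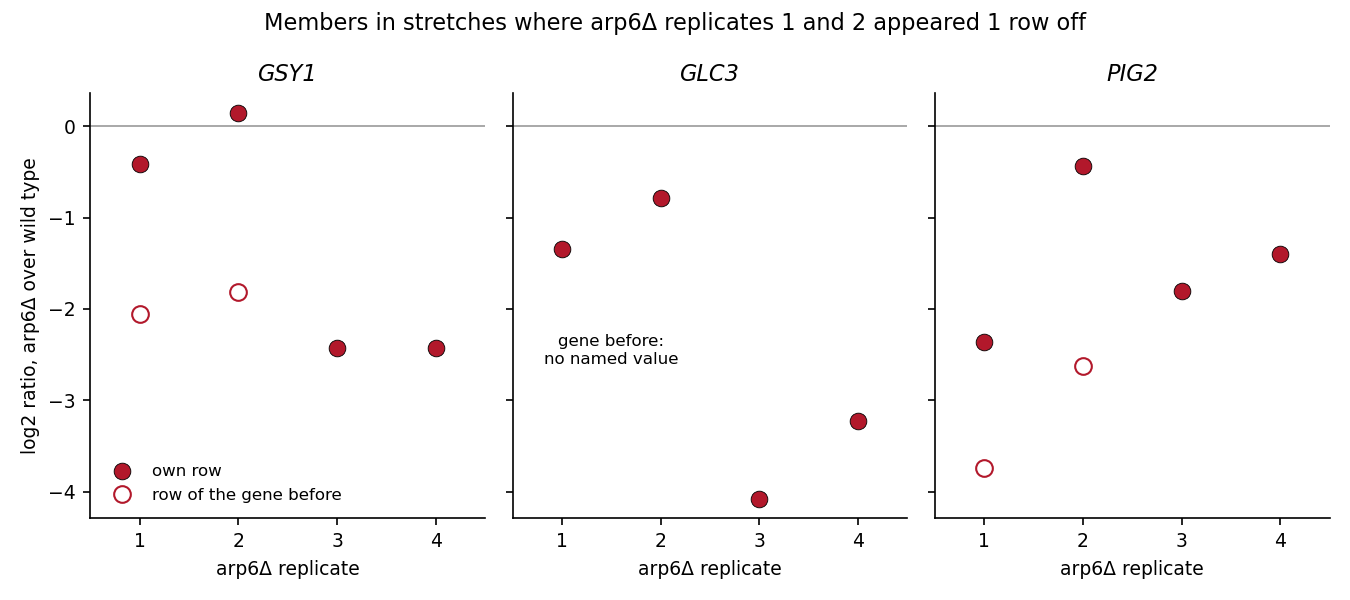
Log2 ratio of arp6Δ over wild type (vertical axis) on each arp6Δ array (horizontal axis) for the 3 members in displaced stretches; filled points are the gene's own row as deposited, open points are replicates 1 and 2 taken from the row of the preceding gene. For GSY1 the open points at −2.05 and −1.81 lie nearer to the −2.43 of replicates 3 and 4 than the filled points do, a likeness by which the rows were found, and GLC3 has no open point.

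As a group the members had a median of −1.98, −0.96, −1.94 and −1.77 on the arp6Δ arrays, and of 0.05, 0.08 and 0.37 on the swr1Δ arrays. The median of all features lay between −0.01 and 0.00 on every array. The mean of the array medians was −1.66 ± 0.48 (SD, n = 4) in arp6Δ cells and 0.17 ± 0.18 (SD, n = 3) in swr1Δ cells. Replicate 2 was the mildest of the arp6Δ arrays, and all 4 arp6Δ medians lay below all 3 swr1Δ medians.

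Other genes that yeast turns up when growth slows moved on the same arrays. Of 6 general stress response genes (HSP12, HSP26, CTT1, DDR2, SPI1 and GRE1), 4 fell in arp6Δ cells, HSP26, CTT1, DDR2 and SPI1, and none rose, beside 3.27% of all features lower. With the pairs of arp6Δ arrays as a random block, where 21 of 5879 features passed, only HSP26 and DDR2 did. Without replicate 2 none of the 6 passed, and 0 of 5872 features did. All 6 then had an unadjusted p under 0.05, as had 1465 of the 5872 features. HSP12 and SPI1 lie in displaced stretches. As deposited, SPI1 had values on arp6Δ replicates 3 and 4 alone, −2.22 and −2.03. HSP12 as deposited read −0.06, −0.22, −2.51 and −1.94 in arp6Δ cells, and −1.40, 0.01 and −0.30 in swr1Δ cells. With the displaced values moved back, CTT1, DDR2, HSP26 and HSP12 passed and SPI1 did not, beside 3.78% of all features lower. The search had replaced or dropped the HSP12 values of replicates 1 and 2, so its call there is no separate support. The median of the list was −4.95, −3.66, −2.55 and −2.19 on the arp6Δ arrays, and −0.14, 0.32 and 0.53 on the swr1Δ arrays. DDR2, a stress gene of unknown function, read −4.95, −3.66, −4.30 and −4.01 in arp6Δ cells, and 0.31, 0.85 and 0.73 in swr1Δ cells. It fell in arp6Δ cells (mean −4.23 ± 0.55, adjusted p = 0.006) and rose in swr1Δ cells (mean 0.63 ± 0.28, adjusted p = 0.028).

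The 8 genes active once glucose is used up (HXT5, ADH2, ICL1, MLS1, FBP1, PCK1, SPG1 and SPG4) had a median of −6.80, −1.06, −0.80 and −0.56 on the arp6Δ arrays, and of 0.11, 0.34 and 0.55 on the swr1Δ arrays. Only SPG4 fell in arp6Δ cells, with a mean of −3.53 ± 2.09 (SD, n = 4; adjusted p = 0.049). The SPG4 call was lost when any arp6Δ array was left out and with the pairs as a random block. It was also lost with a robust eBayes prior and with every feature on at least 2 arp6Δ arrays included. Those 2 fits called 308 of 5879 and 313 of 5901 features. On arp6Δ replicate 1 the median of this list was far below that of the other arrays. In log2 units the glycogen median of replicate 1 was level with those of replicates 3 and 4. ICL1, MLS1, FBP1, PCK1, SPG1 and SPG4 read −7.34, −8.84, −9.92, −4.24, −10.0 and −6.27 on replicate 1. HXT5 and ADH2 went the other way, at 0.46 and 1.44, each the highest of its 4 arp6Δ values. ADH2 averaged 0.94 ± 0.52 in arp6Δ cells (adjusted p = 0.078). Whether the cultures had used different amounts of their glucose was not tested, and the part of these genes in the result was not tested either. Of the 5 genes of sporulating cells none was past the threshold in either mutant, with 0 and 1 of them at an unadjusted p under 0.05 in arp6Δ and swr1Δ cells. Among all 5879 features 1730 and 2448 had such a p. Of the mating type genes listed, 1 of 3 for MATα cells and 3 of 4 for MATa cells had values. STE3 of MATα cells fell in arp6Δ cells (mean −1.55 ± 0.69, adjusted p = 0.042). The STE3 call was lost when any arp6Δ array was left out and with the pairs as a random block. MFA2 and STE2 of MATa cells rose in swr1Δ cells (means 1.09 ± 0.57 and 0.48 ± 0.17, adjusted p = 0.023 and 0.037), beside 11.2% of all features. STE2 lost its call without swr1Δ replicate 2 or 3, in fits that called 279 and 397 of 5802 features. Both lost it in the fit that pools the spread of all 7 arrays, where 0 of 5879 features passed.

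**Figure D3:**
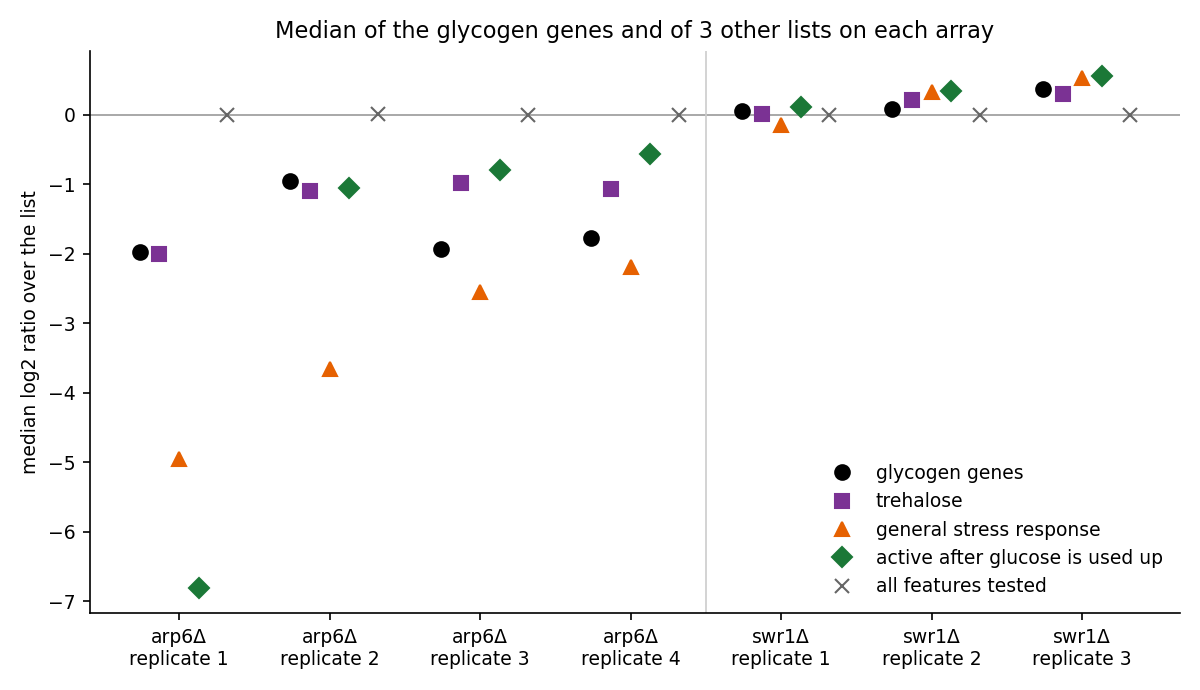
Median log2 ratio of deletion strain over wild type (vertical axis) on each of the 7 arrays for the glycogen genes (black circles), trehalose genes, general stress response genes and genes active after glucose is used up, with the median of all features as crosses near 0. The glycogen genes stay between −1.98 and −0.96 on the arp6Δ arrays and between 0.05 and 0.37 on the swr1Δ arrays.

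The wider pathway was read from 6 lists, of which 41 genes were tested. In arp6Δ cells 8 fell and none rose, beside 3.27% of all features lower. In swr1Δ cells 5 rose and 2 fell, beside 11.2% of features higher and 10.9% lower, and in the contrast 9 were lower, beside 3.9%. With the pairs of arp6Δ arrays as a random block, where 21 of 5879 features passed, only PGM2 kept its arp6Δ call (adjusted p = 0.030). The other 7 genes, GLK1, TPS1, TPS2, TSL1, REG2, TPK2 and YAK1, had adjusted p-values of 0.074 to 0.13. Leaving out any swr1Δ array, or arp6Δ replicate 4, left none of the 41 past the threshold in the contrast. Those fits called only 3 or 5 of all features. Without swr1Δ replicate 2 only GLC7 passed in swr1Δ cells, in a fit that called 279 of 5802 features.

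In the supply of glucose phosphate and UDP-glucose, 2 of 6 genes fell in arp6Δ cells and none rose. PGM2, the major phosphoglucomutase, which links glucose 6-phosphate and glucose 1-phosphate, read −3.96, −2.77, −3.01 and −3.35 in arp6Δ cells, and −1.51, 0.24 and 0.22 in swr1Δ cells. All of its arp6Δ values were below the lowest swr1Δ value (arp6Δ mean −3.27 ± 0.51, SD, n = 4; adjusted p = 0.010). GLK1, a glucokinase, fell to a mean of −1.11 ± 0.19 in arp6Δ cells (adjusted p = 0.038). UGP1, which makes the UDP-glucose that synthase uses, averaged −1.18 ± 0.49 in arp6Δ cells (adjusted p = 0.051) and 0.41 ± 0.30 in swr1Δ cells (adjusted p = 0.077), and differed between the mutants by −1.59 (adjusted p = 0.035). PGM2 and GLK1 differed between the mutants as well, by −2.92 (adjusted p = 0.026) and −1.20 (adjusted p = 0.041).

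In swr1Δ cells 3 of these 6 genes rose, namely HXK1, HXK2 and PGM1, and none fell, in the test where 11.2% of all features rose. HXK2, the main hexokinase of cells growing on glucose, averaged 0.57 ± 0.11 (SD, n = 3; adjusted p = 0.023). In arp6Δ cells HXK2 read 4.09, 1.09, −0.21 and −0.33, so that the pairs of arrays pointed in opposite directions.

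Trehalose, the other storage carbohydrate of yeast, is built from the same UDP-glucose. Of its 7 genes 3 fell in arp6Δ cells, TPS1 and TPS2, which catalyse the steps of synthesis, and TSL1, a subunit of the same complex. TPS1 read −2.0, −1.34, −1.67 and −1.46 in arp6Δ cells, and −0.05, 0.25 and 0.51 in swr1Δ cells. These groups did not overlap, and the arp6Δ mean was −1.62 ± 0.29 (SD, n = 4; adjusted p = 0.028). TPS2 averaged −1.60 ± 0.79 (adjusted p = 0.047) and TSL1 −1.48 ± 0.61 (adjusted p = 0.041) in arp6Δ cells. With the pairs as a random block the adjusted p was 0.074 for TPS1, 0.13 for TPS2 and 0.097 for TSL1. With every array included, all 3 differed between the mutants, by −1.85 for TPS1 (adjusted p = 0.021), −1.84 for TPS2 (adjusted p = 0.041) and −2.10 for TSL1 (adjusted p = 0.026). TSL1 was the only trehalose gene past the threshold in swr1Δ cells, where it rose (mean 0.61 ± 0.29, adjusted p = 0.030).

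Of the 12 kinases, cyclins and subunits that act on glycogen synthase, none was past the threshold in arp6Δ cells. An unadjusted p under 0.05 was found for 5 of them, and for 1730 of 5879 features. In swr1Δ cells PHO85, a cyclin-dependent kinase that phosphorylates synthase, was the only one past it, with a mean of 0.70 ± 0.26 (SD, n = 3; adjusted p = 0.023). Of 9 genes for type 1 phosphatase and its other subunits, REG2 fell in arp6Δ cells. REG2 encodes a targeting subunit of Glc7 and read −5.91, −3.53, −2.72 and −1.55 there (mean −3.43 ± 1.85, adjusted p = 0.042), against 0.05 and −0.09 on the 2 swr1Δ arrays that measured it. GLC7 itself averaged −0.31 ± 0.31 in arp6Δ cells (adjusted p = 0.38) and fell in swr1Δ cells (mean −0.80 ± 0.31, adjusted p = 0.023). REG1, another Glc7 subunit, averaged −0.48 ± 0.09 in swr1Δ cells (adjusted p = 0.031). GLC7 lies in a displaced stretch of the arp6Δ table.

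Of 6 measured genes for protein kinase A and stress transcription factors, TPK2 and YAK1 fell in arp6Δ cells and none passed in swr1Δ cells. There 2 had an unadjusted p under 0.05, as had 2448 of 5879 features. TPK2, a catalytic subunit of protein kinase A, averaged −1.63 ± 0.51 in arp6Δ cells (adjusted p = 0.032) and YAK1, a kinase that opposes that pathway, −1.43 ± 0.41 (adjusted p = 0.036). BCY1, the inhibitory subunit of protein kinase A, differed between the mutants by −1.30 (adjusted p = 0.042), as did TPK2 by −1.50 and YAK1 by −1.44, and BCY1 lies in a displaced stretch. MSN2 and MSN4, the transcription factors of the general stress response, averaged −0.18 ± 0.32 and −0.56 ± 1.31 in arp6Δ cells (adjusted p = 0.60 and 0.47). SGA1, a glycogen-degrading glucoamylase of sporulating cells, averaged −0.35 ± 0.30 in arp6Δ cells (adjusted p = 0.32) and 0.05 ± 0.21 in swr1Δ cells (adjusted p = 0.80).

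**Figure D4:**
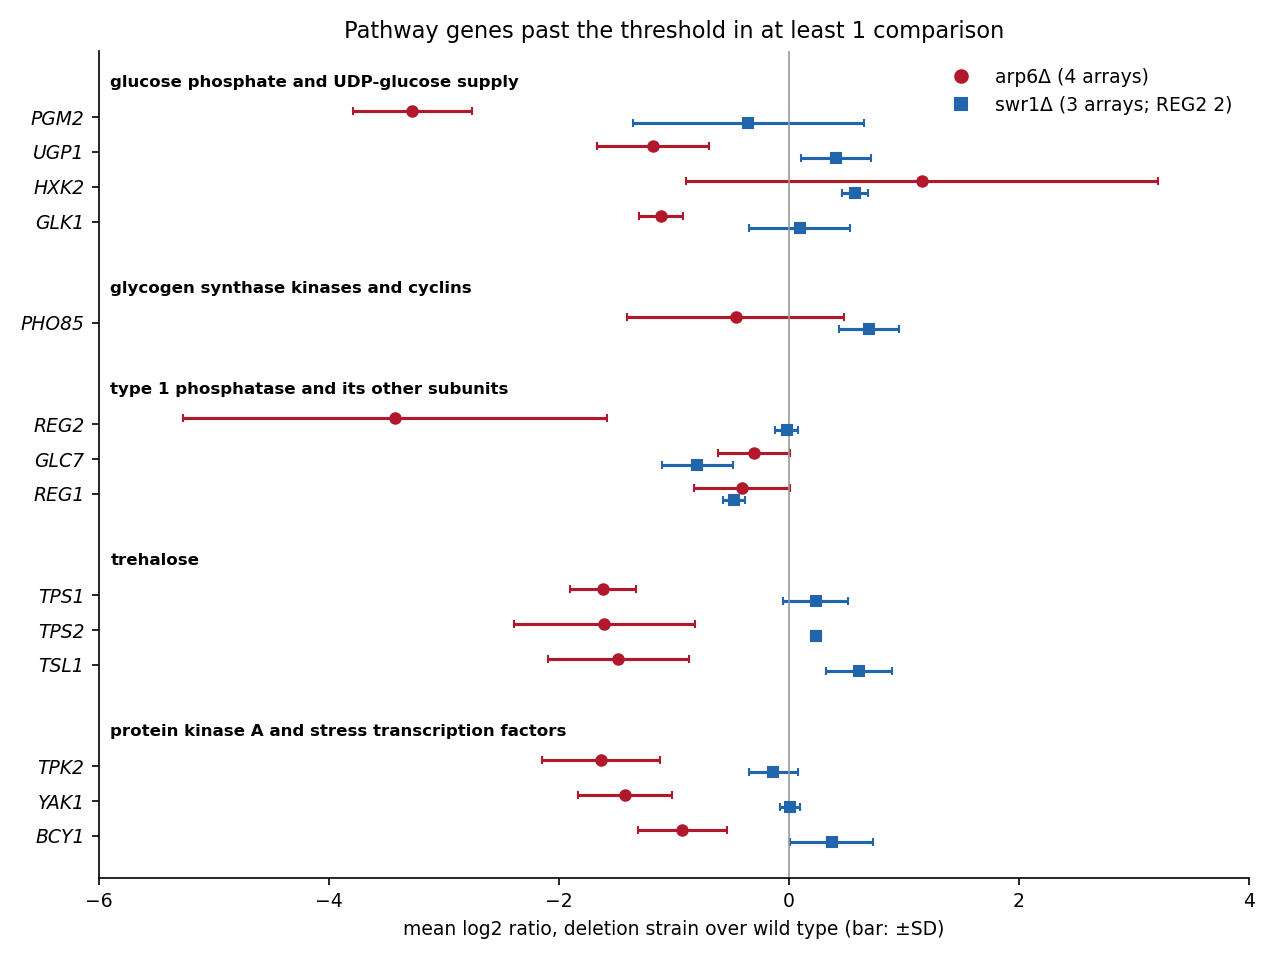
Mean log2 ratio of deletion strain over wild type (horizontal axis, bars ± SD) in arp6Δ (red circles) and swr1Δ (blue squares) for the genes of the pathway lists that the text gives by the naming rule. PGM2 at −3.27 and REG2 at −3.43 have the lowest arp6Δ means, and GLC7 at −0.80 has the lowest swr1Δ mean.

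The genes whose 7 ratios came closest to the mean profile of the 9 glycogen genes measured on all arrays were YOL153C, AIM2, HSP42, MDH2 and TPK2, chosen among 5584 features by root mean square difference on the log2 scale. Their differences from the profile were 0.16, 0.18, 0.18, 0.19 and 0.20. The mean profile itself read −1.99, −0.93, −1.99 and −1.86 on the arp6Δ arrays, and −0.02, 0.13 and 0.21 on the swr1Δ arrays. MDH2, a malate dehydrogenase of gluconeogenesis, read −2.31, −1.16, −1.89 and −2.04 in arp6Δ cells, and −0.08, 0.27 and 0.07 in swr1Δ cells. HSP42, a small heat shock protein, read −1.86, −0.53, −1.88 and −1.80 in arp6Δ cells, and −0.00, 0.00 and 0.31 in swr1Δ cells. Both shared with the glycogen genes a milder value on arp6Δ replicate 2 and values near wild type in swr1Δ cells, which is what the choice by likeness asked for.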

How the data were processed

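Per the labels, RNA of each deletion strain carried Cy5 and wild-type RNA Cy3, with no dye swap, so a fixed dye effect cannot be separated from a difference to wild type. The study's array methods speak of independent cultures but differ from the labels in temperature and RNA reagent, and the labels were used. Whether arp6Δ arrays share a culture is not stated, and p-values measure the spread between these arrays. The deposited values are log2 ratios that the authors had normalised, by a method not given in the sources used here. Spot intensities were not used, so array number limits precision. Of 6912 probes, 5446 had 1 gene symbol in the platform annotation, updated through the reference gene table, and 1466 had none. Several probes were averaged for 20 genes, none of them a member.

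The main test was lmFit with eBayes (limma 3.58.1, R 4.3.3) for each mutant's own arrays against 0, and over all 7 arrays for the contrast, 2-sided, on 5879 features with values on at least 2 arrays of each mutant. Tables and plots were made in Python 3.11.15. Fits and row search were tested on simulated data. The simulated arp6Δ fit found 56% of changes of 2 and 11.3% of changes of 1 in log2 ratio. Of its calls 3.81% were false, but the simulated arrays were independent, so this rate does not cover the pairs of arp6Δ arrays. Displaced rows were sought after the data had been seen, with a probability above 0.5. All members were named, with at most 4 genes past a threshold from each pathway list, by the larger mean. HXK1, PGM1, MSN2, MSN4, SGA1 and the genes named from the marker lists were added after their values were seen. The members and lists were chosen with earlier results of these data known. A planned promoter motif search was not run, for want of promoter sequences here.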

Additional observations from a re-analysis of the deposited data

Results flagged for a closer look

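On the arp6Δ arrays, replicate 1 stood apart in the median of the genes active after glucose is used up (−6.80, −1.06, −0.80 and −0.56), where its gap made up 0.920 of the range of the 4 arrays, and in the trehalose median (−2.0, −1.10, −0.98 and −1.07), where it made up 0.886. Replicate 2 stood apart for HSP42 (0.939) and AIM2 (0.832), of the genes most like the glycogen profile. Replicate 2 was also the mildest in that profile, so these 2 flags were set in part by the choice by likeness. Chance flags about 1 in 20 groups that were not chosen in this way. No glycogen gene was flagged in this way.

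The mutants differed, by the limma contrast of arp6Δ minus swr1Δ, for GLG1 (−1.37), GPH1 (−2.49) and GDB1 (−2.95) among the glycogen genes, for PGM2 (−2.92), UGP1 (−1.59) and GLK1 (−1.20) in the supply of glucose phosphate, for TPS1 (−1.85), TPS2 (−1.84) and TSL1 (−2.10) in trehalose synthesis, and for TPK2 (−1.50), YAK1 (−1.44) and BCY1 (−1.30). None of these differences was past the threshold once any swr1Δ array, or arp6Δ replicate 4, was left out. Those fits called only 3 or 5 of all features.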

How the results depend on the processing

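Counts past the threshold were 4 glycogen and 8 pathway-list genes in arp6Δ, 2 and 7 in swr1Δ, and 3 and 9 in the contrast. They stayed within 1.5 times of these with array medians subtracted, a robust eBayes prior and other rules for the features tested, and no glycogen or named pathway gene past its threshold changed sign under any alternative. A fit that pools the spread of all 7 arrays gave 7 glycogen and 20 pathway genes in arp6Δ but 0 and 0 in swr1Δ (1 and 2 at an unadjusted p under 0.05, beside 790 of 5879 features). Over all features that fit called 1577 of 5879 in arp6Δ and 0 of 5879 in swr1Δ. The cause was not tested, beside the unequal SDs of the mutants given above. Scale and quantile normalisation each gave 16 pathway genes in arp6Δ, beside 817 and 884 of 5879 features. Scale normalisation gave 14 in the contrast, beside 1142 of 5879 features. The methods' t-test at p under 0.05 gave 14 pathway genes in arp6Δ, and 6 glycogen and 17 pathway genes in the contrast, but after Benjamini-Hochberg 0 of any list in any comparison (unadjusted, 6 glycogen genes in arp6Δ, and 3 with 7 pathway genes in swr1Δ). Over all 5879 features that t-test gave 1291 in arp6Δ, 1225 in swr1Δ and 1539 in the contrast, and 0 after adjustment. With the arp6Δ pairs as a random block 0 glycogen genes (8 at an unadjusted p under 0.05) and 1 pathway gene were called. Of 5879 features that fit called 21, with 1248 at an unadjusted p under 0.05. Chosen after seeing the data, arp6Δ replicates 3 and 4 alone gave 8 and 32, and replicates 1 and 2 alone 2 glycogen genes. Over all features those 2 fits called 2547 of 5861 and 454 of 5709. Displaced values moved back gave 7 glycogen genes in arp6Δ and 5 in the contrast, beside 366 and 404 of 5876 features. Array weights per mutant gave 5 in the contrast, beside 765 of 5879 features. Replicate numbers did not pair the arrays (correlations of deviations 0.02, 0.05 and −0.05), and with a replicate block 0 glycogen and 0 pathway genes were called (7 and 18 at an unadjusted p under 0.05), with arp6Δ replicate 4 left out. Of 5594 features that fit called 2, with 1391 at an unadjusted p under 0.05. Leaving out 1 array gave 0 to 2 glycogen and 0 to 2 pathway genes in arp6Δ, with 6 to 8 glycogen genes at an unadjusted p under 0.05 where the count was 0, beside 1201 to 1465 of all features. It gave 0 to 5 and 1 to 20 in swr1Δ, the most without replicate 1, and 0 to 5 and 0 to 13 in the contrast. Of all features, 315 were called in arp6Δ, 1303 in swr1Δ and 413 in the contrast, with ranges over the alternatives of 0 to 2547, 0 to 3137 and 0 to 1539. The median of the glycogen genes stayed within 1 SD of its value throughout. GSY2 could not be compared between the mutants.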
